A study of Mus musculus with 6 samples.

Results

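The melanosomal ion transporters are the genes Slc24a5, Slc45a2, Oca2, Tpcn2 and Atp7a, and H3K27ac, the acetylation of histone H3 that marks active promoters and enhancers, was examined over them in low pigment (LP) and high pigment (HP) mouse melanoma cells. The 5 genes share a role, the transport of ions across the membranes of pigment cell organelles, and were picked, with earlier results of these data known, out of 21938 protein-coding genes in the GENCODE annotation. Each gene was taken with 20 kb on each side. Of the 182956 regions obtained by merging the peaks of all H3K27ac libraries, 110 lay in these windows.

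The cells were B16 F10, an established and naturally pigmented mouse melanoma line, grown for 5 days from a seeding of 100 cells per cm2, a sparse culture in which pigment builds up over time. LP and HP cells were sorted from such cultures by side scatter, the scattered light of a flow cytometer that increases with pigment. The groups therefore differ in no treatment, genotype or time. Each population had 2 H3K27ac libraries, called replicate 1 and replicate 2, and unsorted cells gave 1 IgG library per replicate number, which the authors used as the control for peak calling. The sources give no passage, clone or culture of origin per replicate, so the spread between replicates may be partly technical.

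Melanin is made inside the melanosome, a lysosome-related organelle, by tyrosinase, an enzyme that needs copper and works poorly in an acidic lumen. The pH, calcium and metal content of the organelle are set by transporters and channels in its membrane and in the membranes of the secretory pathway. Loss of Slc45a2 or Oca2 function causes oculocutaneous albinism in humans and coat colour mutants in mice, and variants of Slc24a5 and Tpcn2 are known for their effect on human pigmentation.

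Each deposited peak list gives the number of fragments that cover a peak's summit (the pileup), and dividing it by the library's fragment total and multiplying by 1000000 gave the scaled pileup that all levels here refer to. Regions that reached within 3 kb of the annotated start of any transcript were promoter elements, and all others were non-promoter elements. Where the peak caller's threshold was not reached there is no pileup at all, so absence of a peak is not a level of 0. All coordinates are in mm10.

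The libraries held 11467942 to 15353176 fragments and 57942 to 71529 peaks, with a median pileup of 7 to 12 fragments per peak. Over the 12084 regions called in all 4 libraries the HP values exceeded the LP values by a median of 0.92 on the log2 scale, by 0.57 within replicate 1 and by 1.30 within replicate 2, and 99.0% of these regions had a difference above 0. HP replicate 2 was above HP replicate 1 by a median of 0.67 and the median difference of LP replicate 2 from LP replicate 1 was -0.061. A difference between HP and LP at a transporter gene is therefore read beside 0.92. All 8 melanocyte lineage genes on the marker list (Mitf, Sox10, Tyr, Tyrp1, Dct, Pmel, Mlana, Gpr143) had a promoter region in all 4 libraries. Of the 4 markers of other cell types, Pecam1 had one too, Epcam and Krt14 had a region in 1 library each, and Ptprc had none.

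The promoters are shown because the H3K27ac values at or near these starts carry most of what follows. No region covered the Oca2 start. RefSeq gives the start of 4 of the 5 genes in the promoter table used here (GRCm38.p6, the assembly of mm10), and the 250 bases before each start are printed from 5′ to 3′ on the gene's own strand. Capitals mark matches to TCATGTG or TCACGTG (the M-box, the site family of the melanocyte factor Mitf), to CACGTG (the general E-box, which TCACGTG contains) and to CTTTGAT (the core of Lef1 sites), searched on both strands.
Slc24a5, chr2:125067877-125068126, + strand: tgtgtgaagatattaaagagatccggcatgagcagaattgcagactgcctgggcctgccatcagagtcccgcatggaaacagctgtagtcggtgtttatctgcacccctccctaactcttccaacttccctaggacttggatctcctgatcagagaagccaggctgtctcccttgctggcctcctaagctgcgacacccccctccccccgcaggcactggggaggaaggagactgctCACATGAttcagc
Oca2, chr7:56239509-56239758, + strand: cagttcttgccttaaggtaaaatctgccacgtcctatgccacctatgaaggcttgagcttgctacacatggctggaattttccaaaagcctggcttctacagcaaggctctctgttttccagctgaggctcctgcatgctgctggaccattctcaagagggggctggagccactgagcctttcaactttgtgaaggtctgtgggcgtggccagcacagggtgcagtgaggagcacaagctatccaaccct
Tpcn2, chr7:145284012-145284261, - strand: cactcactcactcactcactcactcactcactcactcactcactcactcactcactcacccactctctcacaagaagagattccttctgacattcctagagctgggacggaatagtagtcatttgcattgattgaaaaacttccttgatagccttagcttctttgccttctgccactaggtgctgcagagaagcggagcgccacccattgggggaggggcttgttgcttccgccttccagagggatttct
Atp7a, chrX:106026974-106027223, + strand: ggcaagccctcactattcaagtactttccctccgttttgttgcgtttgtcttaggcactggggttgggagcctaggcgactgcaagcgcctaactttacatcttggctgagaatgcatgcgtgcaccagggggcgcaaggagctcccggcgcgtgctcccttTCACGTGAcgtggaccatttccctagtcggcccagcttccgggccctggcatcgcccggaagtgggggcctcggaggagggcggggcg

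The Slc24a5 promoter held 1 TCATGTG, read on the opposite strand as CACATGA, 13 to 7 bases before the start. The Atp7a promoter held TCACGTG starting 88 bases before the start, in a palindrome that matches on both strands. The Oca2 and Tpcn2 sequences had no match to these letters. TCATGTG occurred in 3.25% of the 32841 RefSeq promoters of this length, TCACGTG in 3.13%, CACGTG in 6.02% and CTTTGAT in 3.21%. Atp7a was also the richest of the 4 in CpG, the dinucleotide that is dense in promoters of broadly used genes. Its observed over expected CpG ratio was 0.742, against 0.258 for Slc24a5, 0.113 for Oca2 and 0.267 for Tpcn2, and a median of 0.374 over all promoters.

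No gene was without a peak: each of the 5 windows held at least 3 peaks in every library. Over all protein-coding genes, 94.5% had a peak in such a window in at least 1 library. The 4 libraries had 31 (LP replicate 1), 37 (LP replicate 2), 42 (HP replicate 1) and 63 peaks (HP replicate 2) over the 5 windows, which span 741.1 kb together. Of the 110 regions, 18 were promoter elements of the transporter genes, 13 were promoter elements of a neighbouring gene and 79 were non-promoter elements. Most were called once: 82 regions (74.5%) had a peak in 1 library, beside 81.7% of all regions, 13 in 2 libraries, 8 in 3 and 7 in all 4. Called once were 20 of the 31 promoter elements (64.5%), beside 64.3% of promoter regions, and 62 of the 79 non-promoter elements (78.5%), beside 88.4%. All 5 genes had a region at the own promoter in at least 1 library, whereas 27.7% of protein-coding genes had none. A promoter region present in all 4 libraries was found at Slc24a5 and Atp7a only, 2 of 5 genes, and at 46.2% of protein-coding genes.

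**Figure D1:**
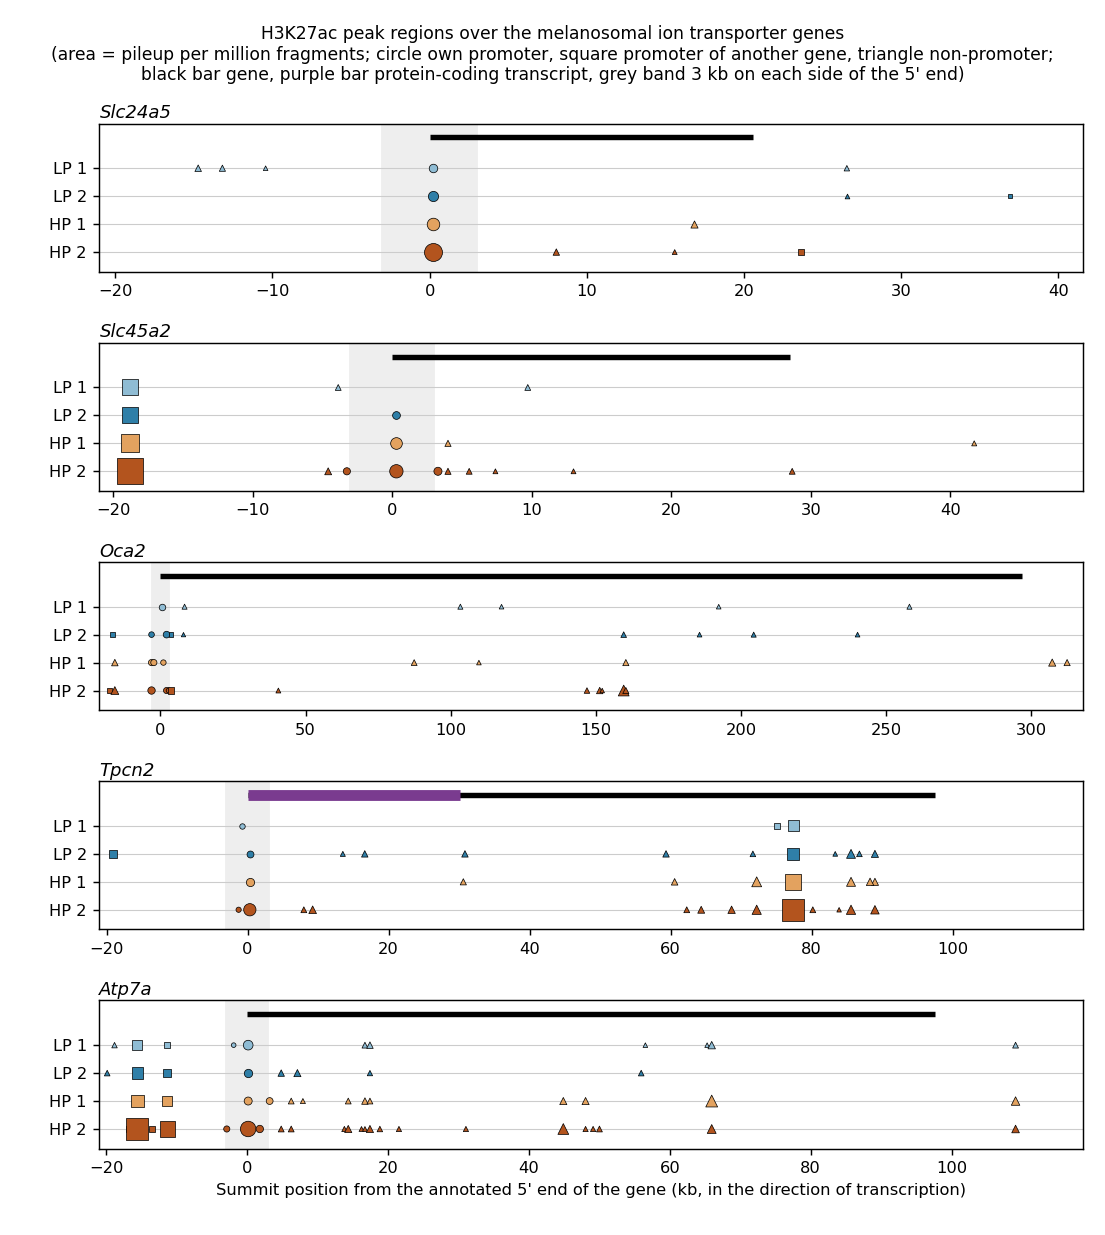
Position and height of every peak region in the 5 windows, 1 panel per gene and 1 line per library, with distance from the gene's annotated 5′ end in kb and marker area proportional to the scaled pileup. The start of Slc24a5 carries a circle in all 4 libraries and that of Slc45a2 in 3, while the peaks of Oca2 are small and spread along the gene.

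Slc24a5 encodes NCKX5, an exchanger that moves calcium against sodium and potassium. The gene lies at chr2:125068124-125088677 on the + strand, and its promoter region, chr2:125067306-125069315, covered the annotated start. The scaled pileup at this promoter was 1.48 and 2.15 in LP (17 and 33 fragments) and 3.22 and 6.59 in HP (37 and 94 fragments). Both HP values were above both LP values, and the order held within replicate 1 (1.12 on the log2 scale) and within replicate 2 (1.62). The difference of 1.37 (SE 0.54) had an adjusted p of 0.0845 by limma with Benjamini-Hochberg adjustment over all 12084 regions. limma gave the same SE to every window region that had a peak in all libraries. This SE is pooled over regions, so neither it nor the p measures the replicate spread at a single region. The difference was above 86.1% of all regions, and it was 0.36 after centring, which set the median levels of the libraries equal. Centring takes out the difference between library medians, which is not the same as the median difference of 0.92. Without HP replicate 2 the difference was 0.85 and without HP replicate 1 it was 1.89.

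Outside the promoter, Slc24a5 had little. Its window of 60.6 kb held 10 regions, and 8 of them were called in 1 library. Apart from the promoter, a single region was shared between libraries. It lay at chr2:125094625-125094867 and was called in both LP libraries at 0.610 and 0.456 (7 fragments each) and in neither HP library. This was the only such region in the 5 windows, beside 0.249% of all regions, and it lay 6.0 kb past the end of Slc24a5 inside Myef2, the neighbouring gene. In LP, peaks covered 2060 bp of the window in replicate 1 and 1488 bp in replicate 2, and the HP replicates, with 1736 and 3194 bp, overlapped them. LP replicate 1 alone had 3 small upstream peaks, with summits -10.43, -13.18 and -14.72 kb from the start and with 5 to 10 fragments.

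Slc45a2 encodes a transporter that raises the pH of the maturing melanosome. The gene lies at chr15:11000721-11029233 on the + strand, and its promoter region, chr15:11000093-11003214, was the longest at any of the 5 starts, at 3122 bp. No peak was called there in LP replicate 1, and the scaled pileup was 1.24 in LP replicate 2 (19 fragments), 2.79 in HP replicate 1 (32) and 3.65 in HP replicate 2 (52). Both HP values lay above the single LP value. The level of LP replicate 1, which did not reach the peak caller's threshold, is unknown and may be lower. A fit without it rests on 1 LP library, here and at the Oca2 and Tpcn2 promoters. A fit that left out the library without a peak, chosen after seeing the data, gave a difference of 1.37 (SE 0.66) with an adjusted p of 0.207 by limma over 25825 regions.

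Both populations had further peaks around the Slc45a2 promoter. HP replicate 2 had further promoter regions with summits -3.26 and 3.27 kb from the start (negative values are upstream), at 1.05 and 1.33, which no other library shared. A non-promoter region in intron 2, chr15:11004609-11005001, was called in both HP libraries at 0.784 and 0.772 (9 and 11 fragments) and in neither LP library. Its 300 bases around the summit held 1 CTTTGAT match, 3 bases past the summit. LP replicate 1 had peaks shared with no other library at chr15:10996737-10996914, -3.88 kb from the start and with 1 TCATGTG match, and at chr15:11010424-11010639 in intron 2, 9.71 kb past it, both at 0.698 (8 fragments). The window had 3 peaks in each LP library and 6 and 10 in HP, and the covered length went from 820 and 1402 bp in the LP libraries to 3320 and 7822 bp in the HP libraries. Both HP libraries thus covered more of it than both LP libraries.

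The highest pileup in the Slc45a2 window belonged to the promoter of Amacr, a peroxisomal racemase gene with its summit -18.83 kb from the Slc45a2 start, at chr15:10980951-10982270. It had 5.76 and 5.08 in the LP libraries, and 6.71 and 14.5 in the HP libraries, a difference of 0.87 (adjusted p = 0.198, limma) that was close to the median of all regions. It was 0.31 without HP replicate 2 and 1.43 without HP replicate 1.

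Oca2 encodes the P protein, a melanosomal membrane protein needed for a chloride conductance that makes the lumen less acidic. The gene is the longest of the 5, at chr7:56239760-56536518 on the + strand (296.8 kb). No region covered its start in any library. The promoter element called most often was chr7:56235425-56236979, with its summit -3.06 kb from the start. It had no peak in LP replicate 1, 0.651 in LP replicate 2, 0.784 in HP replicate 1 and 1.12 in HP replicate 2 (10, 9 and 16 fragments). LP replicate 1 instead had a peak nearer to the start, chr7:56239988-56240171, 0.38 kb past it, at 0.872 (10 fragments), which was above the value of HP replicate 1 at the upstream element. At the upstream element the HP values were above the value of LP replicate 2, and the difference of 0.53 (SE 0.66) had an adjusted p of 0.628 in the limma fit that leaves out missing libraries. Within intron 1, chr7:56241617-56242195 was called in LP replicate 2 at 0.912 and in HP replicate 2 at 0.772, near the start of the antisense gene Gm44506.

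Of the 29 regions in the Oca2 window, 23 were called in 1 library and none in all 4. The non-promoter peaks in the gene body were low, with at most 12 fragments outside a pair of elements in intron 19, 159.6 and 160.3 kb past the start. There, chr7:56399157-56399587 had 0.651 in LP replicate 2 and 2.39 in HP replicate 2 (10 and 34 fragments) and no peak in the other libraries. The difference of 1.87 compares 1 library with 1, without replication at this element, so no p is given. The neighbour of this element, chr7:56399727-56400201, was called in both HP libraries at 0.784 and 0.772 and in neither LP library. The pair together had peaks in LP replicate 2 and both HP libraries. Another region called in both HP and neither LP library lay -15.7 kb from the Oca2 start inside Herc2, chr7:56223759-56224508, at 0.871 and 1.26 in HP. The LP libraries had peaks over 1299 and 2918 bp of the window and the HP libraries over 3218 and 5334 bp, without overlap between the groups.

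Tpcn2 encodes TPC2, a cation channel of lysosomes and melanosomes whose activity makes the melanosome more acidic and reduces pigment. The gene is annotated at chr7:145186524-145284011 on the - strand, but the protein-coding transcript covers only chr7:145253923-145284011, and the rest comes from transcripts marked for decay that run through 1810010D01Rik. The promoter region, chr7:145283367-145284068, had no peak in LP replicate 1, 0.977 in LP replicate 2, 1.39 in HP replicate 1 and 3.09 in HP replicate 2 (15, 16 and 44 fragments). Both HP values were above the LP value. The difference of 1.09 (SE 0.66) had an adjusted p of 0.303 by limma with missing libraries left out. LP replicate 1 instead had a peak of 7 fragments with its summit -0.77 kb from the start.

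Most elements of the Tpcn2 window lay outside the coding transcript. Over the coding part no non-promoter region was called in more than 1 library. Past its end, chr7:145211563-145211968 was called in both HP libraries at 2.00 and 1.75 (23 and 25 fragments) and in neither LP library, and it was the only region of this pattern in the 5 windows with over 20 fragments in both HP libraries. Regions farther along, chr7:145197914-145199500 and chr7:145193915-145195253, had no peak in LP replicate 1. The first had 1.63 in LP replicate 2 and 1.65 and 1.75 in HP, and the second had 1.04 in LP replicate 2 and 1.04 and 1.47 in HP, so LP replicate 2 and HP replicate 1 were level at both.

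The promoter of 1810010D01Rik, chr7:145205156-145207633, carried the highest pileup of the Tpcn2 window, with 2.53 and 2.61 in the LP libraries against 4.70 and 9.26 in the HP libraries. The groups did not overlap, and the difference was 1.36 (SE 0.54, adjusted p = 0.0857 by limma), or 0.87 without HP replicate 2. The window had 1302 and 6688 bp under LP peaks, with 6403 and 7816 bp under HP peaks. LP replicate 2 and HP replicate 1 therefore overlapped in covered length.

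Atp7a encodes a copper pump of the secretory pathway that supplies tyrosinase with its metal. The gene lies at chrX:106027276-106124926 on the + strand, with its promoter region at chrX:106027085-106028092. The scaled pileup was 1.92 and 1.43 in LP (22 fragments each) and 1.31 and 4.91 in HP (15 and 70 fragments). HP replicate 1 was the lowest of the 4 libraries and HP replicate 2 the highest, so the groups overlapped. The difference was -0.55 within replicate 1 and 1.78 within replicate 2, and 0.61 (SE 0.54) over both, with an adjusted p of 0.327 by limma. It was -0.34 without HP replicate 2, 1.57 without HP replicate 1 and 0.40 without LP replicate 2, and after centring it was -0.40. Only 20.4% of all regions had a smaller difference.

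Atp7a had the only non-promoter element of the 5 windows that was called in all 4 libraries. It lay in intron 1, 17.4 kb past the start, at chrX:106044366-106044917, with LP values of 0.872 and 0.586 and HP values of 0.697 and 1.05 (10, 9, 8 and 15 fragments). The groups overlapped and the difference was 0.26 (SE 0.54, adjusted p = 0.655 by limma), below the median of 1.06 over the 2020 non-promoter regions called in all 4 libraries. Within its 95% limits, from -0.80 to 1.32 by the pooled SE, that median is included. The difference was 0.55 without LP replicate 1, 0.56 without HP replicate 1, -0.026 without LP replicate 2 and -0.037 without HP replicate 2.

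Of the 79 non-promoter elements, 3 had a peak in every library but LP replicate 2, beside 754 of 132168 non-promoter regions in the series. All 3 lay in the Atp7a window. In intron 6, chrX:106092915-106093472 had 1.13 in LP replicate 1 and 2.87 and 1.61 in HP (13, 33 and 23 fragments), and the region 11.4 kb past the end of the gene, chrX:106136132-106136563, had 0.698 in LP replicate 1 and 1.48 and 1.19 in HP. At both, the HP values were above the LP value, and both had a difference of 0.93 (SE 0.66), with adjusted p of 0.375 and 0.373 by limma with missing libraries left out. In intron 1, chrX:106043823-106044227 had 0.698 in LP replicate 1 and 0.871 and 0.491 in HP, on either side of the LP value.

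The Atp7a window had 32 regions and the most peaks, 12 and 9 from the LP libraries against 15 and 23 from the HP libraries, and its covered length was 3561 and 2961 bp with LP peaks but 6264 and 12115 bp with HP peaks. Of the 8 regions called in both HP and neither LP library, 4 lay in Atp7a. They were in intron 1 at chrX:106033235-106033899 (0.697 and 0.702) and chrX:106041431-106041764 (0.697 and 1.05), and in intron 2 at chrX:106071616-106072806 (1.04 and 2.39) and chrX:106074557-106075393 (1.04 and 0.561). The third had 12 and 34 fragments, and the others had 8 to 15.

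Upstream of Atp7a, promoters of the neighbours Magt1, named as a magnesium transporter gene, and Cox7b, a subunit gene of cytochrome c oxidase, also had regions in all 4 libraries. The region chrX:106011275-106013012 overlapped Magt1 and reached within 3 kb of the starts of both genes. It had LP values of 2.09 and 2.74 and HP values of 3.40 and 10.1. The Cox7b region chrX:106014928-106016448 had LP values of 0.698 and 1.30 and HP values of 1.92 and 4.77. Neither pair of groups overlapped. The differences were 1.29 (adjusted p = 0.0959) and 1.67 (adjusted p = 0.0503) by limma, and the second was the largest of the 7 tested regions in the 5 windows and the nearest to the threshold. Without HP replicate 2 they were 0.51 and 1.01, and without HP replicate 1 they were 2.08 and 2.32.

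**Figure D2:**
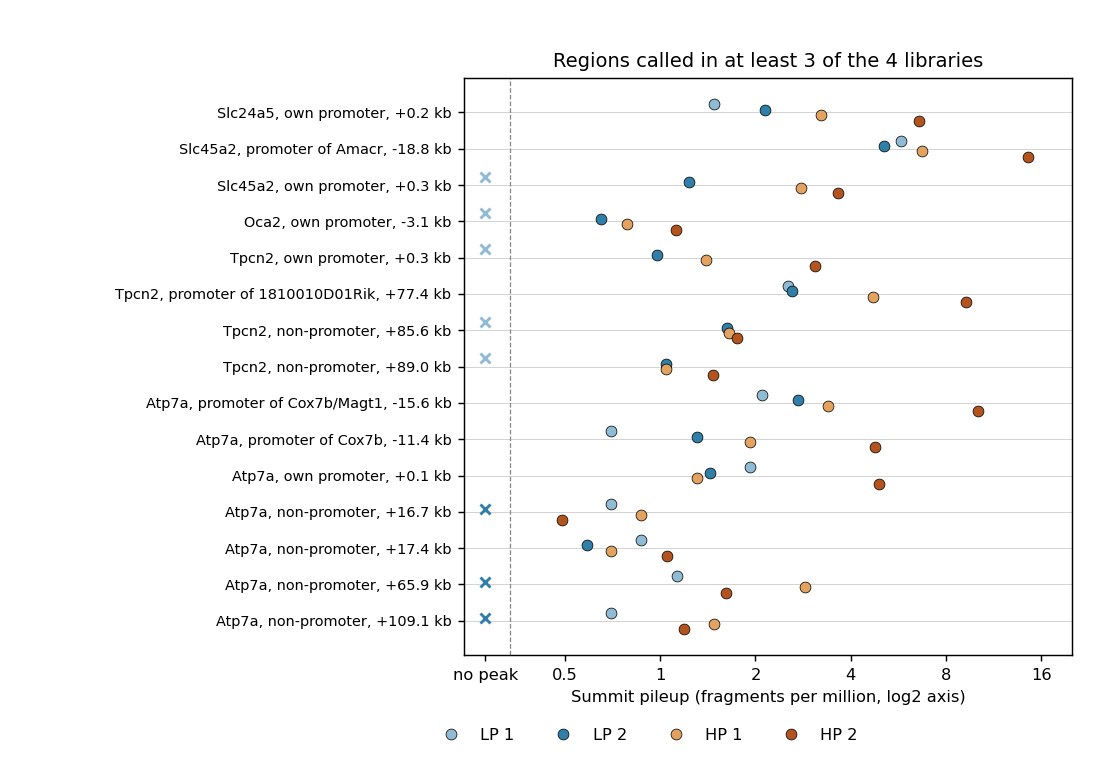
Scaled pileup in each library for the 15 regions of the 5 windows called in at least 3 libraries, on a log2 axis, with crosses for libraries without a peak. At the promoters of Slc24a5 and Slc45a2 both HP points lie to the right of the LP points, at the Atp7a promoter HP replicate 1 is the leftmost point, and LP replicate 1 has no peak at the starts of Slc45a2 and Tpcn2.

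Set side by side, the starts differed in level as well as in the difference between populations. In HP replicate 2 the promoter pileup was 6.59 at Slc24a5, 4.91 at Atp7a, 3.65 at Slc45a2, 3.09 at Tpcn2 and 1.12 at the Oca2 upstream element. The 95% Poisson limits for counting error were 5.33 to 8.07 at Slc24a5, 3.83 to 6.20 at Atp7a, 2.72 to 4.78 at Slc45a2, 2.24 to 4.14 at Tpcn2 and 0.642 to 1.82 at Oca2, so neighbours in this order overlapped except Tpcn2 and Oca2. In LP replicate 2 the order was Slc24a5 (2.15), Atp7a (1.43), Slc45a2 (1.24), Tpcn2 (0.977) and Oca2 (0.651), the same as in HP replicate 2. In LP replicate 1 Atp7a (1.92) lay above Slc24a5 (1.48), and no peak was called at the other elements ranked here. In HP replicate 1 Atp7a (1.31) lay below Slc45a2 (2.79) and Tpcn2 (1.39). The limits treat fragments as independent molecules and cover counting error only.

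Among the 7 window regions with a peak in every library, 6 were promoters, 2 of them of transporter genes. By limma, 0 of the 7 were higher in HP at an adjusted p of at most 0.05, beside 4.01% of all 12084 regions, and 0 were lower, beside 0%. At an unadjusted p under 0.05, 4 of the 7 were higher, beside 36.2%: the promoters of Slc24a5, 1810010D01Rik, Cox7b with Magt1, and Cox7b. Both HP values exceeded both LP values in 5 of the 7, beside 74.8% of all such regions, and these 5 were among the 6 promoters, beside 74.1% of promoter regions. The midpoint of the Slc24a5 and Atp7a promoter differences was 0.99, beside a median of 0.90 over all 10064 promoter regions, and it was -0.021 after centring. In the fit with missing libraries left out, 0 of 19 regions passed, beside 0.0387%.

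HP replicate 1 bore on these tests. Without it 6 of the 7 regions passed by limma, all but the Atp7a intron 1 region, as did 6930 of the 12084 regions, and without any other library 0 of the 7 passed. The single HP library is then assumed to vary like the LP pair.

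**Figure D3:**
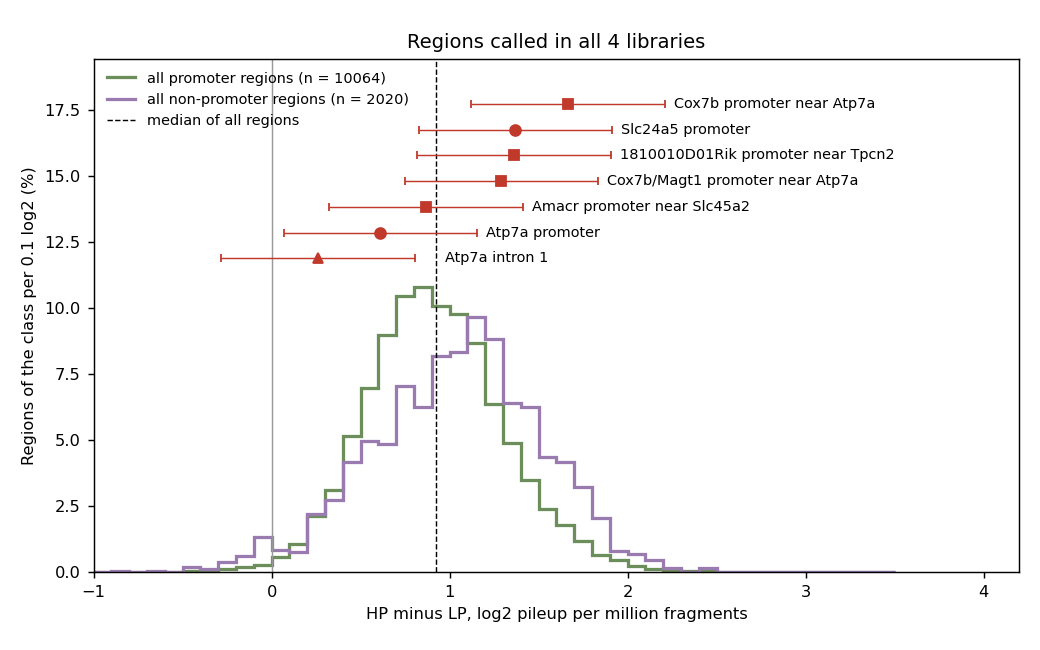
HP minus LP difference (log2 scaled pileup) for the 7 regions of the 5 windows called in all 4 libraries, with bars of 1 SE, above the distribution of all promoter and all non-promoter regions in percent per bin of 0.1. The SE is pooled over regions and is the same for all 7. The Atp7a promoter (0.61) and intron 1 element (0.26) lie left of the median of all regions at 0.92, and the Slc24a5 promoter (1.37) lies right of it.

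Regions called in both HP libraries but in no LP library were counted next. Both HP libraries and neither LP library had a peak in 8 of the 110 regions, beside 3.94% of all regions. They were 8 of the 79 non-promoter elements (10.1%), beside 3.58% of non-promoter regions in the series, and 0 of the 31 promoter elements, beside 4.87%. A further 13 promoter elements were called in a single HP library, 10 in replicate 2 and 3 in replicate 1. The series had 10465 and 6984 such regions among its 50788 promoter regions. Another 7 promoter elements were called in a single LP library, 3 in replicate 2 and 4 in replicate 1, beside 9161 and 6063 in the series. At least 1 region called in both HP and neither LP library lay in 4 of the 5 windows, all but Slc24a5, beside 26.3% of protein-coding genes. The region called in both LP and neither HP library put 1 of 5 genes beside 2.14%. That region was 1 of 79 non-promoter elements, beside 0.272%, and 0 of 31 promoter elements had this pattern, beside 0.189%. Both HP libraries and LP replicate 2, but not LP replicate 1, had a peak in 5 regions, beside 2.94% of all regions. They were 3 promoter elements, at Slc45a2, Oca2 and Tpcn2, beside 4.85% of promoter regions, and 2 non-promoter elements of the Tpcn2 span, beside 2.21%. The windows here are longer than most, since the median protein-coding gene spans 17.4 kb and the 5 genes span 20.6 to 296.8 kb. With 2 libraries a group an exact permutation test cannot reach 0.05, so these counts carry no p.

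The pileups behind most of the 8 regions were close to the lowest at which a peak was called. In 5 of the 8 at least 1 HP library had under 10 fragments, and the lowest pileup of any called peak was 5 fragments in LP replicate 1 (a scaled pileup of 0.436) and 6 in LP replicate 2 (0.391). When regions within 500 bp were merged, 3 of the 8 kept the pattern, all in Atp7a (chrX:106041431-106041764, chrX:106071616-106072806 and chrX:106074557-106075393), and the other 5 joined a stretch with a peak in LP replicate 2.

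Of these elements, 3 are printed as the 300 bases around the summit (mm10, + strand), one for each of 3 genes and among them the highest pileups of this pattern. They are the element in Oca2 intron 19, the element past the Tpcn2 coding transcript and the higher of the Atp7a intron 2 elements. Capitals mark the single motif match.
Oca2 intron 19, chr7:56399926-56400225: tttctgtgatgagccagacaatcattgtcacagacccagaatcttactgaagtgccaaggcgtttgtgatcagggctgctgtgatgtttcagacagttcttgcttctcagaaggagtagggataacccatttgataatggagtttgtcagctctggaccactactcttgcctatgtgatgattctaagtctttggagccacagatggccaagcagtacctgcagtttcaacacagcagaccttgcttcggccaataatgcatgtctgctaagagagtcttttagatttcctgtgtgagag
Tpcn2 span, chr7:145211642-145211941: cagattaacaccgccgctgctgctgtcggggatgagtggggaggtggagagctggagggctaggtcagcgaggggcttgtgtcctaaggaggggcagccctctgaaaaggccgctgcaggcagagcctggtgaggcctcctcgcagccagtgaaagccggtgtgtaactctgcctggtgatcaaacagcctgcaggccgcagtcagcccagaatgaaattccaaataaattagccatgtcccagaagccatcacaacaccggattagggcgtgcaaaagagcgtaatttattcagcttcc
Atp7a intron 2, chrX:106071997-106072296: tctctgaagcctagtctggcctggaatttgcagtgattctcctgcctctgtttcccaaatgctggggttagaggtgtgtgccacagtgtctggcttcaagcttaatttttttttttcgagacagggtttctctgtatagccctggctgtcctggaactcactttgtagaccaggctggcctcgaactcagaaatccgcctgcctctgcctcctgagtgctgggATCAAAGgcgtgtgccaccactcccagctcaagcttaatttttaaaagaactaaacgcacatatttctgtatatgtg

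The Oca2 and Tpcn2 windows held none of the 4 motifs, and none of their bases are marked as repeats in the reference genome. The Atp7a window is marked as repeat over 93.7% of its bases, and its CTTTGAT match (ATCAAAG on this strand, 73 bases past the summit) falls inside the marked part. At least 50% of the bases were marked in 3 of the 8 windows, all in Atp7a, beside 14.0% of the non-promoter regions of this pattern in the series and 24.7% of all non-promoter regions. Over all 110 windows TCATGTG occurred in 6 (5.45%) and CTTTGAT in 10 (9.09%), beside 5.47% and 4.63% of 182787 regions, and TCACGTG occurred in 0, beside 1.61%. CTTTGAT was present in 3 promoter and 7 non-promoter elements. Of these 10 matches, 4 fell in bases marked as repeats, all at Atp7a.

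Covered length was then compared gene by gene. Over the 5 windows the LP peaks took up 9042 and 15457 bp, of which 4452 and 8110 bp were promoter elements. The HP peaks took up 20941 and 36281 bp, of which 10936 and 19195 bp were promoter elements. Both HP libraries covered more than both LP libraries in Slc45a2, Oca2 and Atp7a, 3 of 5 genes, beside 37.9% of protein-coding genes. The libraries themselves differed in the same order, with genome-wide totals of 18896589 and 30271314 bp for LP and of 31854067 and 43930217 bp for HP, and the part of this in the gene values was not tested.

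**Figure D4:**
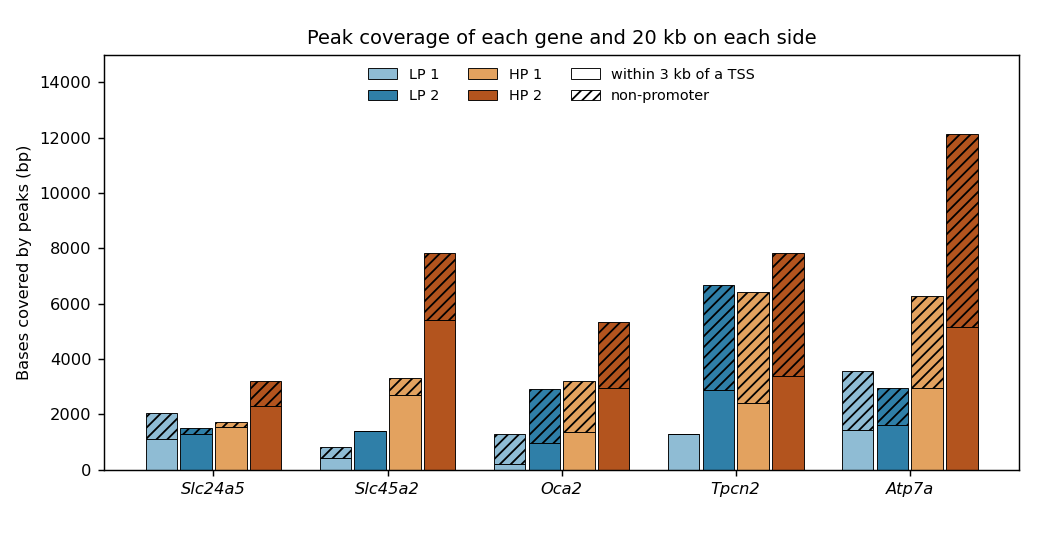
Bases covered by peaks in each library over the 5 windows, with plain bars for promoter elements and hatched bars for non-promoter elements. In Slc45a2, Oca2 and Atp7a both HP bars are taller than both LP bars, and in Tpcn2 LP replicate 2 (6688 bp) is level with HP replicate 1 (6403 bp).

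The transporter promoters were set beside a list of 20 other pigment pathway genes and a list of 10 paralogs. Of the pigment genes, 18 had a promoter region in all 4 libraries, all but the receptor gene Mc1r and the channel gene Trpm1. All 18 had a difference above 0, beside 99.3% of promoter regions called in all 4 libraries. Their median was 1.05 and, after centring, 0.036. In 14 of the 18 both HP values were above both LP values, beside 74.1% of those promoter regions. The differences passed by limma at 2 of the 18, beside 4.01% of all regions: Mlph, the melanosome transport adaptor melanophilin (1.90, adjusted p = 0.0405), and Car14, a carbonic anhydrase gene (1.74, adjusted p = 0.0474). With each library centred none of the 18 passed, but under that setting 0 of all 12084 regions were higher in HP. The lowest were Gpr143, a melanosomal receptor gene (0.28), and Mfsd12, a transporter gene of lysosomes and melanosomes (0.34).

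Among the 10 paralogs of the transporters, 6 had a promoter region in all 4 libraries and Slc24a1 had no region at its promoter. Their median difference was 0.43, and -0.58 after centring. Both HP values exceeded both LP values in 3 of the 6, beside 74.1% of promoter regions called in all 4 libraries. By limma 0 of the 6 passed, beside 4.01% of all regions. The highest were the mitochondrial exchanger gene Slc8b1 (1.45, adjusted p = 0.0748 by limma) and Tpcn1 (0.87), and the lowest were Slc24a3 (0.0060) and Slc45a3 (0.41). Relatives can be read side by side. Slc24a5 had 1.37, beside 0.0060 at Slc24a3 and 1.45 at Slc8b1, and Slc45a2 had 1.37, beside 0.41 at Slc45a3. Tpcn2 had 1.09 and Tpcn1 had 0.87, and Atp7a had 0.61 and its paralog Atp7b 0.42. The Slc45a2 and Tpcn2 values come from the fit with missing libraries left out, as LP replicate 1 had no peak there. Differences between genes were not tested.

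Of the 24 list genes with a promoter region in all 4 libraries, those nearest to Slc24a5 in log2 pileup over the 4 libraries, by Euclidean distance, were the melanin enzyme gene Dct (0.69) and the regulator gene Mitf (0.77). Dct had LP values of 1.66 and 1.50 and HP values of 2.61 and 5.33. Nearest to Atp7a were Gpr143 (0.47) and Dct (1.03). Gpr143 had LP values of 1.83 and 1.56 and HP values of 1.13 and 3.72, and so, like Atp7a, its lowest value in HP replicate 1 and its highest in HP replicate 2. Of all regions, 0.174% lay nearer to the Atp7a promoter than Gpr143 did, and 6.28% lay nearer to the Slc24a5 promoter than Dct did. Both genes were picked as nearest from these same values, and the shares depend on how common similar levels are. They describe the picks and test no likeness.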

How the data were processed

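H3K27ac ChIP-seq peak lists of 2 LP and 2 HP libraries were used; samples were grouped by their labels. Per the labels and the study's methods, the authors trimmed reads with Trimmomatic 0.33, aligned them to mm10 with Bowtie2 2.5.1 and ran MACS 3.0.0b1 on each library for narrow peaks, with the IgG library sharing its replicate number as control. The summit pileups were deposited as whole fragment counts, unscaled. The fold enrichment, −log10 p, −log10 q and integer score of each peak are the authors' values; of these, −log10 q alone was used, as a filter in an alternative.

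Pileups were scaled to 1000000 fragments, lists were merged at an overlap of at least 1 bp, and a region took its highest summit per library. limma 3.58.1 (R 4.3.3, two-sided) compared log2 scaled pileups over the 12084 regions called in all 4 libraries, with Benjamini-Hochberg adjustment and a threshold of 0.05, so reads and DiffBind were not used here. Elements came from GENCODE M21, sequences from RefSeq and repeat marks from the lower-case bases of the reference. Simulated data were used to test the merging and the fit.

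The labels state equal DNA within a replicate set and the IgG controls follow the number, but no source ties a number to a culture, so the replicate block was an alternative. Named genes were the 5 transporters, genes whose starts made a window region a promoter, the 2 nearest list genes and the 2 highest and 2 lowest of each list. Members, lists and tests were chosen with earlier results of these data known. Other alternatives were centring, quantile normalization, fragment length scaling, mean summits, a stricter q, other windows, merging and promoters, and leaving out libraries. Pileups of few fragments are imprecise, and missing peaks have no value. Other tools were pandas 2.3.3, numpy 2.4.6 and matplotlib 3.10.9 under Python 3.11.15.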

Additional observations from a re-analysis of the deposited data

How the results depend on the processing

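The 485 regions of the series higher in HP became 88 with the replicate block, 0 with centring, quantile normalization or the mean of a region's summits, 9 when fragment length entered the scaling, 332 at a q-value of at most 0.01 and, in the fit with missing libraries left out (chosen after seeing the data), 10. Leaving out 1 library gave 0 to 6930. The 0 regions of the transporter windows stayed 0 under every alternative except without HP replicate 1, so that leaving out 1 library gave 0 to 6. The replicate block changed no call in these windows, and took Mlph and Car14 to adjusted p of 0.0539 and 0.0607 by limma. The replicate differences of LP and HP correlated at 0.0153 over regions, so the data give no hint that the numbers pair the libraries. The midpoint of the Slc24a5 and Atp7a promoter differences, 0.99, was -0.021 with centring and -0.064 with quantile normalization, and 0.25 to 1.73 with 1 library left out. For the single non-promoter region, 0.26 became -0.75 with centring and -0.53 with quantile normalization, and lay between -0.037 and 0.56 with 1 library left out. The Atp7a promoter was also negative with centring (-0.40), quantile normalization (-0.45) and without HP replicate 2 (-0.34), and 1.57 without HP replicate 1, the Atp7a intron 1 region without LP replicate 2 (-0.026) and without HP replicate 2 (-0.037), and the Amacr promoter with centring (-0.14). The 8 regions called in both HP and neither LP library became 7 over gene bodies or coding spans (the latter chosen after seeing the data), 10 with 50 kb on each side, 8 at a q-value of at most 0.01 and 3 when regions within 500 bp were merged. With single lists there were 47 without replicate 1 and 29 without replicate 2, a mean of 38 within the replicate block. Apart from settings that use fewer libraries, the cause of these changes was not tested.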

Other observations

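At Slc45a2 the promoter region and the elements next to it formed 1 stretch of 4909 bp when regions within 500 bp were merged, with peaks in LP replicate 2 and both HP libraries. The HP element of Oca2 intron 19 joined its neighbour in a stretch of 1045 bp and the HP element past the Tpcn2 coding transcript one of 1222 bp, both with a peak in LP replicate 2. Of the 82 regions called once, 35 were from HP replicate 2, 13 from HP replicate 1 and 17 from each LP library. Genome-wide, the regions called once were 38949 in HP replicate 2, 31328 in HP replicate 1, 39776 in LP replicate 1 and 39418 in LP replicate 2.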
